A study of Mus musculus with 24 samples.

Results

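Thyroid hormone signalling genes were followed in the brains of mice exposed to chronic mild stress (CMS) and of untreated control mice. The 9 genes were Slc16a10 and Slco1c1 (transport), Dio2 (activation), Crym (binding inside the cell), Thra and Thrb (nuclear receptors), Klf9 and Hr (target genes) and Trhr (the receptor for thyrotropin-releasing hormone). They were found by taking every probe set of the array whose single symbol in the platform annotation was one of these names, which gave 24 probe sets out of the 45037 tested. Klf9 had 7 of them, Slc16a10 had 4, Thra and Dio2 had 3 each, Hr and Trhr had 2 each, and Thrb, Slco1c1 and Crym had 1 each. The 4 probe sets of Ttr, which encodes the thyroid hormone carrier transthyretin, were read beside them.

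RNA from the amygdala (Amy), hippocampus (Hippo), cerebral cortex (CC) and prefrontal cortex (PFC) was hybridised to Affymetrix whole-genome expression arrays for mouse, with 3 CMS and 3 control arrays for each area, 24 in all. All mice were wild-type C57BL/6 males, aged 6 to 8 weeks by the age label. The study's text gives this as the age at purchase, before a stay in the transport cage and the weeks of stress, so the tissue came from older mice. The CMS mice met unpredictable stressors on 6 days a week for 4 weeks, every mouse in the same order, and the control mice met none. The study's text speaks of independent mice for each area but its array methods of pooled RNA, so p-values measure the spread between 3 arrays, which may be technical in part.

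Thyroxine enters the brain through membrane transporters such as Slco1c1 (Oatp1c1) on capillary endothelium, and Dio2, an enzyme known mainly from astrocytes, removes one iodine from it to make the active hormone T3. T3 leaves and enters cells through transporters that include Slc16a10 (Mct10), is held in the cytosol by mu-crystallin, the product of Crym, and acts in the nucleus on the receptors encoded by Thra and Thrb, which switch on genes such as Klf9 and Hr. Transthyretin carries thyroxine in blood and, made by the choroid plexus, in cerebrospinal fluid, and TRH acts on Trhr both in the pituitary and on neurons.

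The deposited values are on a log2 scale on which each probe set has a median of 0 over the 24 arrays, so a value says how far an array lies from that probe set's own median and cannot be set against another probe set. A change is the CMS mean minus the control mean of one area, and its p-value comes from limma with Benjamini-Hochberg adjustment over all 45037 probe sets. A probe set is said to have risen or fallen when the adjusted p was under 0.05, and is called when the change was also over 2-fold. With 3 arrays against 3, an exact permutation test cannot give a two-sided p below 0.1. These p-values therefore rest mainly on limma's assumption that the values of a probe set are normally distributed, which 3 arrays a group cannot check. Over all probe sets, the CMS and control arrays did not overlap in 59.2% of cases in the amygdala, 60.6% in the hippocampus, 55.6% in CC and 49.4% in PFC. Arrays that do not overlap are therefore the usual case here, and of the 24 probe sets they did not overlap for 14, 17, 17 and 16. The 18 hybridisation control probe sets, which read RNA added to every sample, also differed between the groups, with a mean of 0.82 ± 0.07 in Amy CMS arrays and 0.01 ± 0.005 in Amy control arrays (SD, n = 3). In the hippocampus that mean was -1.48 against -1.11, in CC 0.01 against 0.15 and in PFC 0.14 against -0.17. The hippocampal marker list averaged 3.42 to 3.48 in hippocampal control arrays and no more than 0.23 in the control arrays of any other area.

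In the amygdala, Trhr fell in both of its probe sets and Crym fell, while 3 of the 7 Klf9 probe sets and 2 of the 3 Thra probe sets rose. In the cerebral cortex, Thrb rose, 1 Thra probe set rose and the Klf9 probe sets moved in both directions. In the hippocampus, 1 Dio2 probe set fell by 0.42 and 1 Klf9 probe set by 0.50 on the log2 scale, and 1 Thra probe set rose by 0.47. In PFC, Klf9 alone of the 9 genes passed, with 3 probe sets lower. Ttr fell to a small fraction of its control level in the amygdala, CC and PFC. None of the 24 probe sets fell in all 3 of those areas, where 78 of all 45037 did (0.173%), so this count does not set the members apart from the array.

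Of the 24 probe sets, 2 were called in the amygdala, both lower, where 1.19% of all probe sets were called and 0.777% were called lower. The count was 0 in the hippocampus (0.651% of all), 1 in CC (1.12% of all, 0.875% higher), which was higher, and 0 in PFC (0.209% of all). At an adjusted p under 0.05 alone, 6 rose and 3 fell in the amygdala, where 18.3% of all probe sets passed, 11.4% higher and 6.88% lower. In the hippocampus 2 rose and 5 fell, where 40.7% passed, 5.68% higher and 35.0% lower. In CC 4 rose and 2 fell, where 9.15% passed, 5.49% higher and 3.67% lower, and in PFC 0 rose and 3 fell, where 5.26% passed, 2.78% higher and 2.48% lower. The 9 passing in the amygdala belonged to 5 genes, the 7 in the hippocampus to 5, the 6 in CC to 3 and the 3 in PFC to 1. Leaving out any 1 array left 0 or 1 of the 3 in PFC, 6 to 8 in the amygdala, 2 to 8 in the hippocampus and 4 to 6 in CC. The share of all probe sets that passed moved too, to 1.61% to 2.97% in PFC, 5.74% to 19.6% in the amygdala, 6.56% to 44.0% in the hippocampus and 4.44% to 9.97% in CC. The median change of the 24 was 0.02 in the amygdala, -0.06 in the hippocampus, -0.07 in CC and -0.02 in PFC, where the medians of all probe sets were 0.03, -0.05, -0.03 and 0.02.

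**Figure D1:**
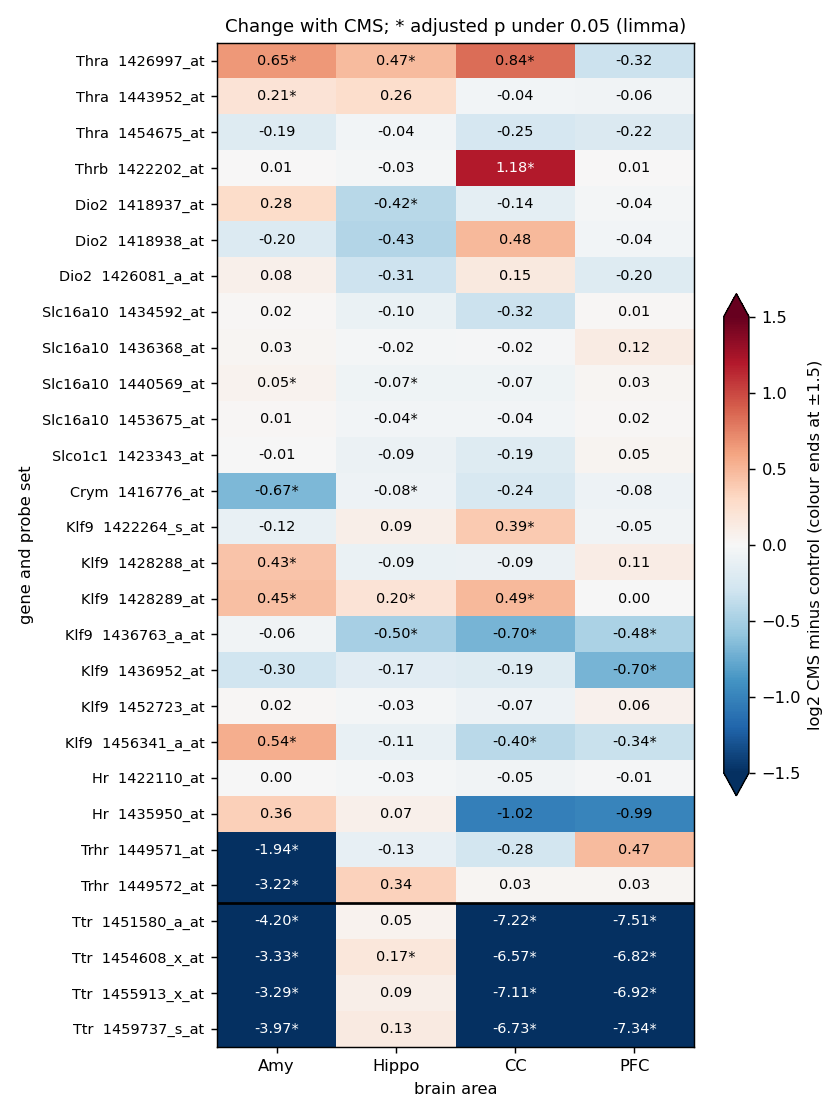
Each row is a probe set and each column a brain area. The colour and the printed number give the log2 change, CMS minus control (3 arrays each), and the colour scale ends at 1.5 in either direction. An asterisk marks a limma adjusted p under 0.05. The 4 Ttr rows under the black line are dark blue in 3 areas, and of the rows above it only the 2 of Trhr in the amygdala reach that colour.

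Ttr gives the size of change against which the other genes were read. In the amygdala its 4 probe sets changed by -4.20 to -3.29, in CC by -7.22 to -6.57 and in PFC by -7.51 to -6.82, and all 4 were called lower in each area (limma, largest adjusted p 0.00625). In the hippocampus the 4 changes ran from 0.05 to 0.17, and none was called, though the highest, of 1454608_x_at, passed (adjusted p 0.0259). The Ttr probe set 1455913_x_at read 3.45, 3.31 and 3.49 in the CC control arrays and -3.72, -3.77 and -3.58 in the CC CMS arrays. The choroid plexus marker list without Ttr moved with it in CC, where 11 of its 12 measured genes fell and 10 were called, with list means of -0.89 to -0.82 in CMS arrays and 1.40 to 1.53 in control arrays. In PFC 4 of the 12 fell, none by over 2-fold (-0.23 to -0.22 against 0.07 to 0.16). In the amygdala none of the 12 fell and 3 rose (-0.26 to -0.20 against -0.31 to -0.28), and in the hippocampus 2 rose (2.61 to 2.68 against 2.28 to 2.42). Enpp2 and Prlr, also on the list, had no probe set with that symbol alone and were not read. The study itself lists Prlr among the genes lower in the amygdala and in CC. What part the choroid plexus genes have in the change of Ttr was not tested. In tissue RNA, fewer cells of a type and less RNA in each cell cannot be told apart.

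Read across the 3 areas where Ttr fell, 2 member probe sets fell in 2 areas, 4 fell in 1 area, 2 rose in 2 areas, 6 rose in 1 area and 11 passed in none. Of all 45037 probe sets, 1.23% fell in 2 of these areas, 10.1% fell in 1, 1.71% rose in 2, 15.7% rose in 1 and 73.6% passed in none. The Klf9 probe set 1456341_a_at is in 2 of these counts, because it rose in the amygdala and fell in CC and PFC. The lowest 95% confidence bound of any member was -2.20 in CC and -1.67 in PFC, both of Hr probe set 1435950_at. The highest such bound of a Ttr probe set was -6.41 in CC and -6.65 in PFC. Every member's interval in those areas thus lay well above every Ttr interval. In the amygdala the lowest member bound was -3.67, of Trhr, which overlaps the Ttr intervals, and -0.79, of Crym, once Trhr is set aside.

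Of the transport genes, Slco1c1 did not pass in any area and Slc16a10 gave little signal to read. Slco1c1 probe set 1423343_at read 0.37, 0.38 and 0.22 in the CC control arrays and 0.12, 0.10 and 0.17 in the CC CMS arrays. The CC arrays did not overlap, and the change was -0.19 (SE 0.05, 95% interval -0.32 to -0.06, limma adjusted p 0.0932). In the other areas the interval reached no lower than -0.26 and no higher than 0.11. Brain endothelial markers, among whose cells Slco1c1 is known to act, rose in 5 of 9 in the amygdala (list means 0.16 to 0.22 in CMS arrays, -0.29 to -0.17 in control arrays), where Slco1c1 changed by -0.01.

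Among the 4 Slc16a10 probe sets, 3 had an SD under 0.1 over the 24 arrays, as did 5 of all 24 member probe sets and 34.8% of the array. That limit was chosen after the values were seen, and a flat reading does not say whether the RNA was steady or below what the probe set can measure. Probe set 1440569_at changed by 0.05 in the amygdala (limma adjusted p 0.0399) and by -0.07 in the hippocampus (0.0337), and 1453675_at by -0.04 in the hippocampus (0.0313). The medians of all probe sets moved the same way by 0.03 and -0.05, and after centring each array on its median none of these 3 changes passed. In 1434592_at a single CC control array stood apart at 0.91, while the other 2 CC control arrays read -0.01.

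Dio2, the enzyme that makes T3, was lower in the hippocampus of CMS mice in all 3 of its probe sets, of which 1 passed. Probe set 1418937_at read -0.58, -0.60 and -0.58 in the hippocampal control arrays and -1.05, -0.96 and -1.00 in the CMS arrays. The groups were separate, with a change of -0.42 (SE 0.03, limma adjusted p 0.00427), a level 0.75 times that of control. Probe set 1418938_at changed by -0.43 (SE 0.14, adjusted p 0.0566) and 1426081_a_at by -0.31 (SE 0.17, adjusted p 0.198) in the same arrays.

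In the amygdala, 1418937_at went the other way, with control arrays at -0.38, -0.39 and -0.58 and CMS arrays at -0.05, -0.24 and -0.24. The change was 0.28 (SE 0.08) and did not pass (limma adjusted p 0.0832), but the amygdala and hippocampal changes of 1418937_at differed by 0.69 (SE 0.08, adjusted p 7.16e-06 in a fit of all arrays). The astrocyte list fell in 3 of 10 genes in the hippocampus and 5 of 10 in the amygdala, with list means of 0.05 to 0.09 in hippocampal CMS arrays and 0.05 to 0.16 in controls, and of 0.03 to 0.08 and 0.23 to 0.26 in the amygdala. Of all genes, 29.6% passed in the hippocampus and 19.4% in the amygdala in either direction, and of all probe sets 35.0% and 6.88% fell. The hippocampal count of this list is thus near that of the whole array. The part of the list in the Dio2 values was not tested. In control mice, all 3 Dio2 probe sets were highest in CC.

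The RefSeq promoter of Dio2 (GRCm38.p6, chr12:90738989-90739288, minus strand, 300 bases around the start) is shown because it holds 1 copy of the cAMP response element TGACGTCA, in capitals, which 588 of 32851 promoters of the same length hold (1.79%, both strands searched). Such a match describes the sequence only.
Dio2: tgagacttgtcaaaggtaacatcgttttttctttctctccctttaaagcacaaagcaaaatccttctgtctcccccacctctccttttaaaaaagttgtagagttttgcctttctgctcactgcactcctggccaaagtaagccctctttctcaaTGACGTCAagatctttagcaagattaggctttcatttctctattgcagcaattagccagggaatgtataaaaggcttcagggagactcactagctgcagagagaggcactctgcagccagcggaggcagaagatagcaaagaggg

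Crym, whose product binds T3 in the cytosol, fell in the amygdala. The 3 control arrays read 0.21, 0.25 and 0.22 and the 3 CMS arrays -0.43, -0.53 and -0.37, with a gap between the groups several times the spread within either. The change was -0.67 (SE 0.05, limma adjusted p 0.00307), so that the control level was 1.59 times that of CMS mice.

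In the hippocampus Crym read 1.12, 1.13 and 1.11 in control arrays and 1.03, 1.06 and 1.04 in CMS arrays, a small change of -0.08 (SE 0.01, limma adjusted p 0.019) beside a median of -0.05 over all probe sets. It no longer passed after centring each array on its median. In CC the change was -0.24 (SE 0.07, adjusted p 0.0932) and in PFC -0.08 (SE 0.02, adjusted p 0.121), and in both areas every CMS array lay below every control array. The fall in the amygdala was larger than the change in the hippocampus by 0.59, in CC by 0.42 and in PFC by 0.59, each at an adjusted p under 0.05 in the fit of all arrays (the largest of the 3 was 7.41e-05). Control mice had their highest Crym values in the hippocampus, at a mean of 1.12, then the amygdala at 0.23, PFC at 0.03 and CC at -1.21, and every neighbouring pair in that order differed.

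Some markers of neighbouring areas fell with Crym and Trhr in the amygdala. Of the 10 hippocampal CA and dentate markers, 4 fell there and 3 were called, 1 rose (Wfs1, by 0.41) and 5 did not pass, with list means of -0.58 to -0.43 in CMS arrays and 0.19 to 0.23 in control arrays. Fibcd1, a CA1 marker, changed by -1.81 (SE 0.13) and C1ql2, a dentate marker, by -2.82 (SE 0.10). Of the 11 measured hypothalamic markers, 4 fell and 2 were called, with list means of 0.67 to 0.84 in CMS arrays and 1.44 to 1.79 in control arrays. Other lists moved in the same arrays: 9 of 10 striatal markers rose, 8 of 9 oligodendrocyte markers fell, and of 12 thalamus and habenula markers 4 rose and 3 fell. The part of any of these lists in the changes of Crym and Trhr was not tested.

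The receptor genes rose only in part, Thra in some of its probe sets and areas and Thrb in CC alone. Thra encodes the thyroid hormone receptor alpha, the main form in the brain, and its probe set 1426997_at rose in 3 areas. In CC its control arrays read -0.47, -0.04 and -0.17 and its CMS arrays 0.58, 0.78 and 0.47, a change of 0.84 (SE 0.14, limma adjusted p 0.0258). In the amygdala the controls read -1.14, -1.04 and -0.63 and the CMS arrays -0.24, -0.29 and -0.32, a change of 0.65 (SE 0.15, adjusted p 0.0426). In the hippocampus the controls read 0.76, 0.97 and 0.89 and the CMS arrays 1.17, 1.59 and 1.26, a change of 0.47 (SE 0.13, adjusted p 0.0415).

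In PFC, Thra 1426997_at was lower in CMS arrays (-0.43, -0.17 and -0.11) than in control arrays (0.04, 0.15 and 0.06). The PFC change of -0.32 (SE 0.09, limma adjusted p 0.157) did not pass, but it differed from the CC change by 1.15 (SE 0.20, adjusted p 0.000684) and from the amygdala change by 0.97 (adjusted p 0.00249). Its side of the threshold was fragile: of 14 alternative settings it passed in 6 in the amygdala, in 3 in the hippocampus and in 7 in CC, always with the same sign, and in CC it lost the threshold without any of the 3 CMS arrays or without control array 3 (the highest adjusted p over the CC alternatives was 0.0853). In the amygdala it lost it without any CMS array or without control array 1 or 2, and in the hippocampus without any 1 array (highest adjusted p 0.142 and 0.23).

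The other Thra probe sets did not share this pattern. Probe set 1443952_at rose by 0.21 (SE 0.03, limma adjusted p 0.0227) in the amygdala and changed by 0.26 (adjusted p 0.0693) in the hippocampus, -0.04 in CC and -0.06 in PFC. Its amygdala rise did not pass without CMS array 2 or without any control array (highest adjusted p 0.0767). Probe set 1454675_at had negative changes in all 4 areas, from -0.25 to -0.04, none of which passed. The mean of the Thra probe sets passed in the hippocampus alone, with a change of 0.23 (limma adjusted p 0.0306 over all genes). It changed by 0.22 in the amygdala, 0.18 in CC and -0.20 in PFC (adjusted p 0.0699, 0.132 and 0.102). RefSeq places the end of Thra over the end of its neighbour Nr1d1, which encodes a clock receptor, and the annotation used here does not say which transcript each probe set reads.

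Thrb encodes the thyroid hormone receptor beta and has 1 probe set, 1422202_at, which was raised in the CMS arrays of CC alone. Those arrays read 0.70, 1.54 and 1.29, while the CC control arrays read -0.01, -0.01 and 0.01. In the 21 arrays outside that group the value stayed between -0.03 and 0.03. The change in CC was 1.18 (SE 0.22, limma adjusted p 0.0354), and it exceeded the change in the amygdala by 1.17, in the hippocampus by 1.21 and in PFC by 1.18 (SE 0.17 each, largest adjusted p 0.000164 in the fit of all arrays). That fit uses a single spread for all groups, while the SD was 0.43 in CC CMS arrays and at most 0.017 in any other group. The SE of 0.17 is therefore too small for CC, and these adjusted p-values overstate how firm the difference is.

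The rise of Thrb passed the threshold in 5 of 14 alternative settings, and without CMS array 2 or 3 or without any 1 of the 3 control arrays it did not pass, with a change between 1.00 and 1.42 over all settings and a highest adjusted p of 0.115. The values of the 21 other arrays were so close to one another that the probe set may not have been above its background there, and the table holds no detection call to settle that. Striatal markers moved with Thrb in CC. Of 10 measured, 9 rose and 6 were called, with list means of -0.68 to -0.62 in CMS arrays and -2.01 to -1.83 in control arrays, among them Drd2, a dopamine receptor of striatal neurons, by 3.02 (SE 0.30) and Penk, a striatal neuropeptide precursor, by 1.55 (SE 0.06). The list means were higher in the amygdala (1.29 to 1.36 in CMS arrays, 0.96 to 0.99 in control arrays) and in PFC (0.69 to 0.71 and 0.88 to 0.94). Thrb stayed near 0 in all of those arrays, and 9 of the 10 markers rose in the amygdala too. The part of the striatal markers in the Thrb change was not tested.

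**Figure D2:**
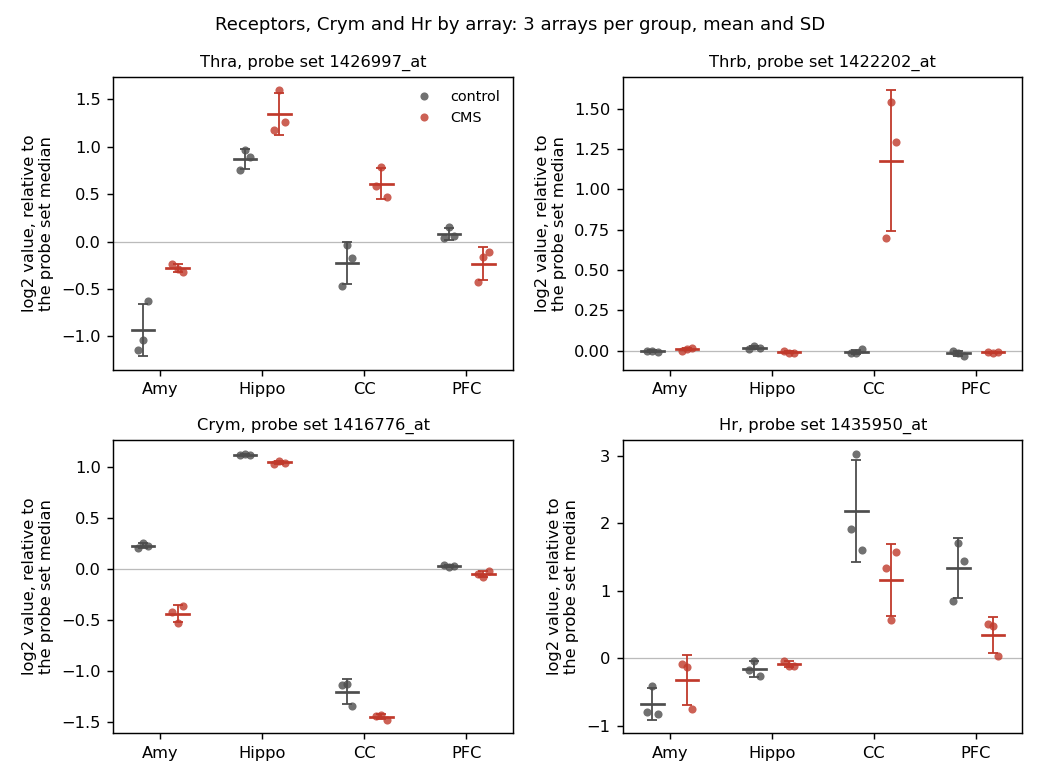
The 4 panels plot Thra, Thrb, Crym and Hr, with the log2 value relative to the probe set's median on the y axis and the area on the x axis. Dots are single arrays, lines the mean and bars the SD of 3 arrays, in grey for control and red for CMS. Thrb lies near 0 in every group but CC CMS, where the dots run from 0.70 to 1.54, and Crym is lower in CMS arrays of the amygdala (-0.53 to -0.37) than in control arrays (0.21 to 0.25).

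RefSeq lists 2 starts for Thrb, and both promoters are shown because the probe set does not say which start its RNA came from. The upstream one (GRCm38.p6, chr14:17660710-17661009, plus strand) holds 1 copy of AGGTCA, the core letters of a thyroid receptor binding site, in capitals, as do 16.3% of all 32851 promoters on either strand. The downstream one (chr14:17981394-17981693, plus strand) holds none. The pair of such letters spaced as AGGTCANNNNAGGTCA was in neither, and in 5 promoters of all (0.0152%).
Thrb upstream start: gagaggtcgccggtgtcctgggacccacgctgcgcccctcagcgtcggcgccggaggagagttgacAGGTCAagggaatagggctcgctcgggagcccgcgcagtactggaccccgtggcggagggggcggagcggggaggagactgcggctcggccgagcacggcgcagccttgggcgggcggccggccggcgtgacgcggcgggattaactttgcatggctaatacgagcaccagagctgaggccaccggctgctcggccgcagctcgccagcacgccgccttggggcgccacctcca
Thrb downstream start: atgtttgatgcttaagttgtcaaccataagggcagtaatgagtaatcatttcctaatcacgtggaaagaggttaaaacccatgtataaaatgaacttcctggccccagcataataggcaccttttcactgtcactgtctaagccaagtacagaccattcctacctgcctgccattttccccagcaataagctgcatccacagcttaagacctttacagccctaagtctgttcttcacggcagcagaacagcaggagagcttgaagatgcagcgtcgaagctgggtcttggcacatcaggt

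Klf9, a zinc finger transcription factor raised by T3 and also by glucocorticoids, gave opposite answers in different probe sets. Probe set 1456341_a_at read -0.42, -0.40 and -0.38 in the amygdala control arrays and 0.19, 0.12 and 0.10 in the CMS arrays, a rise of 0.54 (SE 0.03, limma adjusted p 0.00191). In CC the same probe set read 0.52, 0.48 and 0.38 in control arrays and 0.08, 0.04 and 0.05 in CMS arrays, a fall by 0.40 on the log2 scale (SE 0.04, adjusted p 0.00699). In PFC it fell by 0.34 (SE 0.04, adjusted p 0.0202), and in the hippocampus it changed by -0.11 (adjusted p 0.109). The changes in the amygdala and CC differed by 0.94 (SE 0.06, adjusted p 3.68e-09).

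Within an area, Klf9 probe sets also disagreed with each other. In CC, 1436763_a_at read 0.47, 0.42 and 0.29 in control arrays and -0.26, -0.42 and -0.25 in CMS arrays, a change of -0.70 (SE 0.07, limma adjusted p 0.00657). In the same arrays, 1428289_at read -0.01, 0.00 and -0.12 in controls and 0.47, 0.46 and 0.41 in CMS mice, a change of 0.49 (SE 0.04, adjusted p 0.00427), and 1422264_s_at rose by 0.39 (SE 0.05, adjusted p 0.0106). Both directions were thus measured with the groups well apart, and of the 4 Klf9 probe sets that passed in CC 2 rose and 2 fell.

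In the amygdala the 3 Klf9 probe sets that passed all rose, 1428288_at by 0.43 (SE 0.03, limma adjusted p 0.00281) and 1428289_at by 0.45 (SE 0.04, adjusted p 0.00617) beside 1456341_a_at. In the hippocampus 1436763_a_at fell from 0.49, 0.40 and 0.49 to -0.03, -0.06 and -0.03, a change of -0.50 (SE 0.03, adjusted p 0.00414), and 1428289_at rose by 0.20 (SE 0.05, adjusted p 0.0339). In PFC 1436763_a_at changed by -0.48 (SE 0.06, adjusted p 0.0238) and 1436952_at by -0.70 (SE 0.12, adjusted p 0.0398). Each of the 3 PFC falls and the hippocampal rise of 1428289_at did not pass without several of the single arrays (over all settings the highest adjusted p was 0.0798 to 0.134), whereas 1428288_at and 1456341_a_at in the amygdala, 1456341_a_at and 1428289_at in CC and 1436763_a_at in the hippocampus and CC passed in all 14 alternative settings. Probe set 1452723_at stayed near 0 in all areas. None of the Klf9 changes reached 2-fold.

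The mean of the 7 Klf9 probe sets changed by 0.14 (SE 0.02) in the amygdala, -0.09 (SE 0.03) in the hippocampus, -0.08 (SE 0.04) in CC and -0.20 (SE 0.02) in PFC, so a single value for the gene hides the split. Of 14 genes that glucocorticoids are known to raise, a list that does not hold Klf9, 6 fell in the amygdala, 7 in the hippocampus, 6 in CC and 7 in PFC, and at most 1 rose in an area. Of all probe sets, 6.88%, 35.0%, 3.67% and 2.48% fell in those areas, so the hippocampal count stands beside a far larger share than the others. In the amygdala the list means were -0.25 to -0.16 in CMS arrays and -0.03 to -0.01 in control arrays, while Klf9 rose in 3 probe sets there. Their part in the Klf9 values was not tested.

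**Figure D3:**
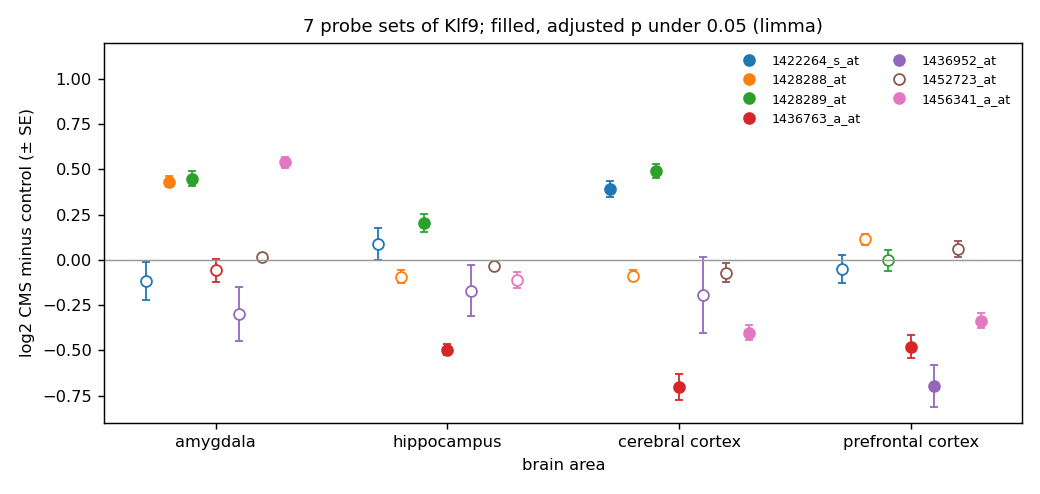
The log2 change of each of the 7 Klf9 probe sets (CMS minus control, 3 arrays each) is plotted for the 4 areas, with bars for the SE and a colour for each probe set. Filled points had a limma adjusted p under 0.05. In CC 2 filled points lie above 0 (0.39 and 0.49) and 2 below (-0.40 and -0.70), while the 3 filled points of the amygdala all lie above 0.

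RefSeq lists 1 start for Klf9, and its promoter is shown because the gene's probe sets moved in both directions, although no table used here maps each probe set to a transcript (GRCm38.p6, chr19:23140976-23141275, plus strand). None of the 3 motifs searched, AGGTCA, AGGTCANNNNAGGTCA and TGACGTCA, lies in it, which says only that these letters are not in this window.
Klf9: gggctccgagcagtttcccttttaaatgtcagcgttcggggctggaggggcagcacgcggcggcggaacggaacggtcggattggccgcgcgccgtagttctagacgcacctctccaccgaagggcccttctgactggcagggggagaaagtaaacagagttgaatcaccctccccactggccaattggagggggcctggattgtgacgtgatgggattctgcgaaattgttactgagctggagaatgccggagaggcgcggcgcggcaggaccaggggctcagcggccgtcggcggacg

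Hr, the nuclear corepressor hairless and a known T3 target in the cortex, had large but variable differences in the cortical areas. Probe set 1435950_at read 1.91, 3.03 and 1.60 in the CC control arrays and 1.34, 0.56 and 1.57 in the CC CMS arrays. In PFC the control arrays read 0.84, 1.71 and 1.44 and the CMS arrays 0.51, 0.48 and 0.04. In both areas every CMS array lay below every control array, in CC by a narrow margin.

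The Hr change was -1.02 in CC (SE 0.46, 95% interval -2.20 to 0.16, limma adjusted p 0.28) and -0.99 in PFC (SE 0.26, interval -1.67 to -0.31, adjusted p 0.123), and neither passed. In the amygdala it was 0.36 (SE 0.23, adjusted p 0.289) and in the hippocampus 0.07 (SE 0.06, adjusted p 0.385), with overlapping arrays. The amygdala and CC changes differed by 1.38 (SE 0.45, adjusted p 0.0227), and the amygdala and PFC changes by 1.35 (adjusted p 0.0649). These differences come from the fit of all arrays, which uses a single spread, while the group SDs of this probe set ran from 0.04 to 0.75. Their SE may therefore be too small where CC is compared. In control mice the Hr level went from CC at 2.18 to PFC at 1.33, which did not differ beyond their spread (adjusted p 0.0516), and then to the hippocampus at -0.16 and the amygdala at -0.68. The second Hr probe set, 1422110_at, stayed near 0 throughout.

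Trhr, the receptor through which TRH raises thyrotropin release in the pituitary and excites neurons elsewhere, had the largest change of the 9 genes, and it was in the amygdala. Probe set 1449572_at read 3.71, 3.60 and 3.21 in the control arrays and 0.16, 0.19 and 0.52 in the CMS arrays. The change was -3.22 (SE 0.17, limma adjusted p 0.00188), with the control level 9.31 times that of CMS mice. Probe set 1449571_at read 2.96, 2.87 and 2.97 in control arrays and 0.96, 1.12 and 0.91 in CMS arrays, a change of -1.94 (SE 0.06, adjusted p 0.000727), or 3.83 times. The study itself lists Trhr among the amygdala genes it picked from these arrays, so its choice is not independent of this change.

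Outside the amygdala neither Trhr probe set passed. In PFC 1449571_at read -0.49, -0.93 and -0.40 in control arrays and -0.04, -0.27 and -0.10 in CMS arrays, a change of 0.47 (SE 0.16, limma adjusted p 0.202), and in CC it changed by -0.28 (SE 0.23, adjusted p 0.416). In the hippocampus 1449572_at read 0.04, 0.42 and 0.91 in CMS arrays against 0.08, 0.08 and 0.17 in controls, a change of 0.34 (SE 0.23, adjusted p 0.274). The amygdala change of 1449572_at differed from those of the other areas by 3.25 to 3.56 and that of 1449571_at by 1.66 to 2.41 (largest adjusted p 3.19e-05 in the fit of all arrays).

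Among control mice Trhr was highest in the amygdala, at 2.93 and 3.51 in the 2 probe sets, against 0.20 and 0.11 in the hippocampus, which came next. The CMS amygdala arrays, at 0.99 and 0.29 on average, lay nearer to the hippocampal control arrays than to the amygdala control arrays. Among the hypothalamic markers that fell with Trhr in the amygdala was Pmch, which encodes melanin-concentrating hormone and is made mainly in the lateral hypothalamus, with a change of -4.18 (SE 0.06, limma adjusted p 0.000106). Calcr, the calcitonin receptor, changed by -2.18 (SE 0.32, adjusted p 0.0139). Trh, the ligand of Trhr, had a mean of 2.09 in amygdala control arrays and 0.82 in CMS arrays, a change of -1.27 (SE 0.36) that did not pass (adjusted p 0.0715), and in PFC it rose by 0.36 (SE 0.07, adjusted p 0.0434).

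**Figure D4:**
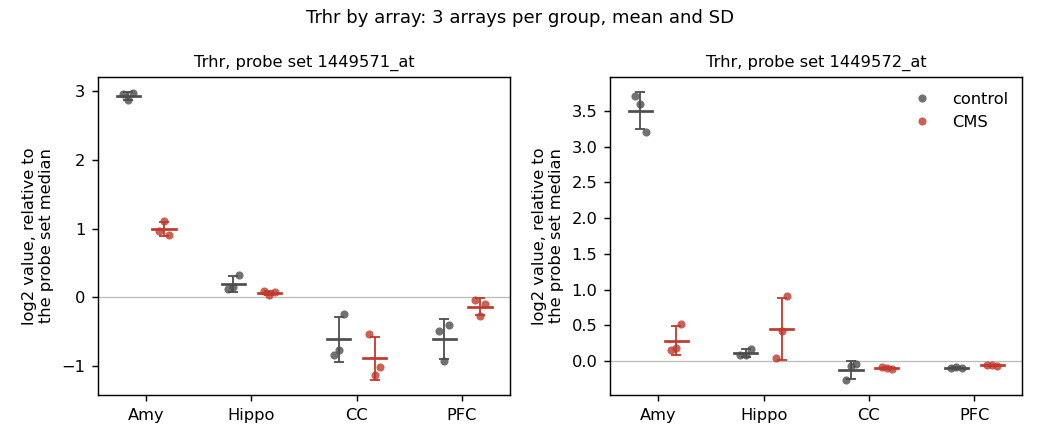
The 2 panels plot the 2 Trhr probe sets, with the log2 value relative to the probe set's median on the y axis and the area on the x axis. Dots are single arrays, lines the mean and bars the SD of 3 arrays, in grey for control and red for CMS. In the amygdala the control dots lie between 2.87 and 3.71 over both panels and the CMS dots between 0.16 and 1.12.

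The response to CMS differed between areas for 17 of the 24 probe sets (adjusted p under 0.05 in limma's interaction test), where 55.0% of all probe sets did. For 5 of the 24 the 4 changes also spanned more than 2-fold, against 6.05% of all. These were the 2 of Trhr, Thra 1426997_at, Thrb and Hr 1435950_at. The fit of all 24 arrays treats them as independent, while the 4 areas of a treatment may come from the same mice, which the labels do not say. With same-numbered arrays of a treatment as a random block, 15 of the 24 passed, the same 5 spanned more than 2-fold, and the adjusted p of Hr 1435950_at was 0.049. That block assumes that a number marks the same mouse in every area. Its fitted correlation was -0.0975, and the deviations of same-numbered arrays of different areas correlated by -0.227 to 0.106. It therefore cannot settle what shared mice would change. In control mice, 9 of the 24 differed between areas by more than 2-fold at an adjusted p under 0.05, against 12.7% of all probe sets.

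The other genes of the pathway were read from 6 lists of 66 genes, of which 60 had a probe set of their own symbol, with the probe sets of a gene averaged. In the amygdala 10 rose and 8 fell (30.0% of the 60, against 19.4% of all 18193 genes), in the hippocampus 7 rose and 7 fell (23.3% against 29.6%), in CC 7 rose and 6 fell (21.7% against 9.94%) and in PFC 4 rose and 8 fell (20.0% against 8.37%). The amygdala excess rested on the full set of control arrays: without any 1 of them 5 or 6 of the 60 passed, where 7.84% to 8.94% of all genes did. Leaving out any 1 array left 3 to 17 of the 60 in the hippocampus (5.12% to 33.5% of all genes), 6 to 16 in CC (3.50% to 11.5%) and 4 to 10 in PFC (2.75% to 5.41%). The median change of the 60 genes was 0.01, -0.03, -0.03 and 0.01 in the amygdala, hippocampus, CC and PFC, beside 0.02, -0.05, -0.03 and 0.02 for all genes. Ttr was the 1 pathway gene called in the amygdala (0.583% of all genes), 0 were called in the hippocampus (0.253%), and besides Ttr 1 was called in CC (0.357%) and 1 in PFC (0.247%).

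Among the 6 other transporter genes measured, Slc7a8, an amino acid exchanger that also carries thyroid hormone, fell by 0.74 in the amygdala (SE 0.13, limma adjusted p 0.0205). Slco1a4, an endothelial anion transporter, rose there by 0.48 (SE 0.08, adjusted p 0.022), in the hippocampus by 0.33 (SE 0.08, adjusted p 0.0374) and in PFC by 0.37 (SE 0.03, adjusted p 0.00721). Slc7a5, the light chain of an amino acid exchanger, rose by 0.18 in the hippocampus (SE 0.05, adjusted p 0.0416), and Slc7a8 fell by 0.20 in PFC (SE 0.03, adjusted p 0.0197). None of the 6 passed in CC, where Slc7a8 (-0.22) and Slc7a5 (-0.15) had the largest changes. Of the 3 plasma carriers, Ttr is described above, and Serpina7, thyroxine-binding globulin, fell by 0.11 in the hippocampus (SE 0.01, adjusted p 0.0121), where albumin, Alb, changed by 0.15 (adjusted p 0.519). Of the 7 genes of deiodination and hormone metabolism, none passed in the amygdala or CC, 1 rose and 2 fell in the hippocampus (changes of -0.13 to 0.08), and in PFC Sult1a1, a sulfotransferase, rose by 0.58 (SE 0.11, adjusted p 0.0365). Dio1, 1 of the 2 that fell in the hippocampus, changed by -0.05 there, beside a median of -0.05 over all genes. Sult1a1 changed by 0.27 in the amygdala, -0.16 in the hippocampus and 0.38 in CC, none of which passed. Wsb1, a subunit of the ligase that marks Dio2 for breakdown, changed by -0.23 in the amygdala and -0.21 in CC (adjusted p 0.21 and 0.0809). Iyd, which recovers iodide, changed by -0.89 in the hippocampus (SE 0.34, adjusted p 0.0968), and Secisbp2, needed to make selenoproteins such as the deiodinases, by -0.31 in PFC (adjusted p 0.388).

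Receptor partners and coregulators (16 measured) passed in 7 cases in the amygdala, with 5 higher and 2 lower. Ncoa3, a coactivator, rose there by 0.53 (SE 0.11, limma adjusted p 0.0316) and Hdac3, the deacetylase of the corepressor complex, fell by 0.49 (SE 0.09, adjusted p 0.0256). In CC Rxrg, the retinoid X receptor that pairs with thyroid receptors and is abundant in striatum, had a mean of -3.96 in control arrays and -1.29 in CMS arrays. That rise of 2.66 (SE 0.21, adjusted p 0.00373) went with the striatal list described for Thrb, and in PFC, where 6 of the 10 striatal markers fell, Rxrg fell by 0.35 (SE 0.07, adjusted p 0.0472). The part of the striatal genes in both was not tested. Of the 16, 2 rose in the hippocampus, 3 rose and 2 fell in CC, and 1 fell in PFC. In the hippocampus Tbl1x, of the corepressor complex, rose by 0.32 (SE 0.05, adjusted p 0.0186) and Rxrg changed by 0.36 (SE 0.44, adjusted p 0.558), and in PFC the coactivator Ep300 changed by 0.15 (adjusted p 0.0952).

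Of the 7 other genes of the TRH and TSH axis, none passed in the amygdala or CC, 1 fell in the hippocampus (Tshr, the thyrotropin receptor, a change of -0.05, adjusted p 0.0344) and 1 rose in PFC (Trh, above). The Tshr change stood beside a median of -0.05 over all genes in the hippocampus, so it does not set Tshr apart from them. Trhde, which degrades TRH, changed by -0.25 in the hippocampus and -0.28 in CC and did not pass (limma adjusted p 0.0682 and 0.0862), and Trh by -0.21 in CC (adjusted p 0.0924). Pgpep1, another peptidase, changed by -0.12 in the amygdala, -0.19 in the hippocampus and -0.21 in PFC, and did not pass.

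The 21 measured genes of the list of T3-raised targets moved in both directions: the amygdala had 4 higher and 4 lower, the hippocampus 2 and 3, CC 4 and 3, and PFC 1 and 5. Rasd2, a striatal T3 target also called Rhes, rose by 0.43 in the amygdala and by 0.78 in CC and fell by 0.36 in PFC (limma adjusted p 0.00436, 0.0117 and 0.0132). The striatal list rose in 9 of 10 genes in the amygdala and in CC and fell in 6 of 10 in PFC, and its part in the Rasd2 values was not tested. The myelin gene Mag fell in the amygdala by 0.59 (SE 0.05, adjusted p 0.00382) and in PFC by 0.30 (SE 0.04, adjusted p 0.0179). The oligodendrocyte list, which shares myelin genes with these targets, fell in 8 of 9 genes in the amygdala and 7 of 9 in PFC, and its part was not tested. In the amygdala Thrsp, a lipogenic gene raised by T3, fell by 0.44 (SE 0.05, adjusted p 0.00668), and the neurofilament gene Nefh rose by 0.29 in the hippocampus (SE 0.05, adjusted p 0.0241), where Flywch2 changed by -0.34 (adjusted p 0.16). Stard4, a sterol carrier, changed by 0.39 in CC (adjusted p 0.0579).

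Cbr2, a carbonyl reductase known mainly from airway epithelium, was the 1 target gene called, at 4.27 in PFC CMS arrays and 1.18 in PFC control arrays, a rise of 3.09 (SE 0.12, limma adjusted p 0.00102). The study itself lists Cbr2 among the PFC genes it picked from these arrays, beside Plunc, which it names for nasal and lung epithelium. No list of airway epithelium markers was read here. In the same PFC arrays 6 of 7 neutrophil markers were called higher, with list means of 4.41 to 4.66 in CMS arrays and 0.92 to 1.04 in control arrays. The part of either cell type in the Cbr2 value was not tested.

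**Figure D5:**
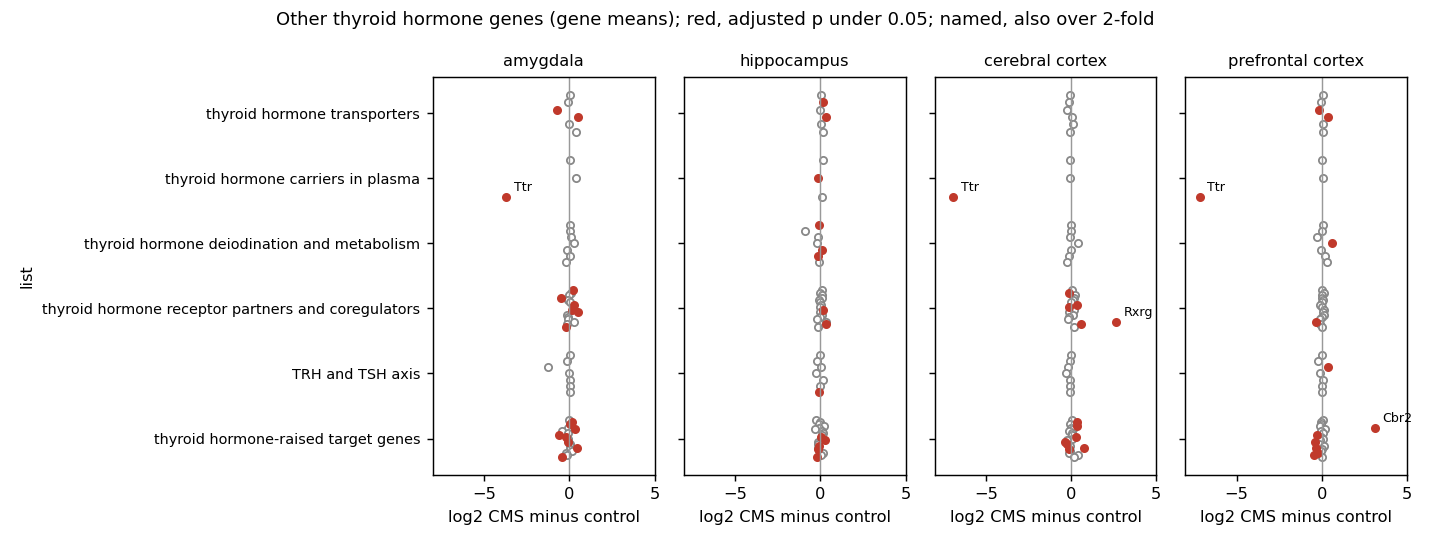
Each point is 1 of the other thyroid hormone pathway genes (mean of its probe sets), with its log2 change, CMS minus control, on the x axis and its list on the y axis, in 1 panel for each area. Within a list the height only separates genes by name. Red points had a limma adjusted p under 0.05, and those also over 2-fold are named: Ttr in 3 areas (-3.70, -6.91 and -7.15), Rxrg in CC (2.66) and Cbr2 in PFC (3.09), while the rest lie close to 0.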

How the data were processed

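Log2 values of 24 arrays were taken as deposited by the authors, who per their methods used GCRMA in GeneSpring GX and set a baseline over the samples. In the file every probe set has a median of 0 over the arrays (largest absolute median 5e-07), so no absolute level, detection call or scanner batch could be read. The 64 control probe sets were left out. Of the 45037 others, 34945 had 1 gene symbol, 932 several and 9160 none, and genes were named only from the first. Groups came from the sample titles.

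For each area, 3 CMS arrays were compared with 3 control arrays in limma 3.58.1 (R 4.3.3, lmFit and eBayes), with Benjamini-Hochberg adjustment over all probe sets, a threshold of 0.05 and, for a call, a fold change over 2. Areas were compared in 1 fit of all 24 arrays, taken as independent although areas may share mice. SEs are limma's and SDs are over 3 arrays. The fits were tested on simulated data. Alternatives were the methods' t-test, other scalings, filters, weights and blocks, and leaving out each array.

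The 9 genes, the lists and the tests were chosen with earlier results of these data known, so no count here is independent support. Every probe set of the 9 genes and Ttr was reported. From each pathway list the genes called in an area were named or, where none was called there, the 2 with the largest absolute change, and the remaining pathway genes and markers named were chosen after their values were seen. Genes most like each member were the 3 with the highest Pearson r. Promoter sequences are those of RefSeq for GRCm38.p6, whose table matched Thrb, Dio2, Klf9, Slc16a10 and Slco1c1. The files name no genome build.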

Additional observations from a re-analysis of the deposited data

Results flagged for a closer look

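The change with CMS differed between areas, by limma's interaction test and by more than 1 on the log2 scale between the highest and the lowest area, for 5 probe sets. Trhr 1449572_at spanned 3.56 (adjusted p 4.86e-09) and Trhr 1449571_at 2.41 (adjusted p 2.05e-06), each with its lowest value in the amygdala. Thrb 1422202_at spanned 1.21 (adjusted p 4.65e-05), with CC highest. Thra 1426997_at spanned 1.15 (adjusted p 0.000736), from -0.32 in PFC to 0.84 in CC, and without the arrays numbered 1 it spanned 0.97 (adjusted p 0.0355). Hr 1435950_at spanned 1.38 (adjusted p 0.0249), from -1.02 in CC to 0.36 in the amygdala, and its adjusted p was 0.153 without the arrays numbered 1, 0.104 without those numbered 2 and 0.0532 without those numbered 3. Both Trhr probe sets and Thrb kept an adjusted p under 0.05 in all 3 of those fits (largest 0.0198, of Thrb). For Thrb these fits share a single spread between the CC CMS arrays and groups that hardly varied, so its adjusted p-values are likely too small.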

How the results depend on the processing

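Both Trhr calls, the fall of Crym in the amygdala and Ttr in the amygdala and CC passed under all alternatives. With all arrays in 1 fit, members called in CC were 2 and at an adjusted p under 0.05 they were 11, with 21 pathway genes. In that fit 20.4% of all probe sets and 20.2% of all genes passed in CC. With array weights, members called were 2 in CC and 1 in PFC, those at an adjusted p were 15 in the hippocampus, 11 in CC and 12 in PFC, and pathway genes were 26 in the hippocampus, 26 in CC and 23 in PFC, where 62.3%, 26.1% and 32.1% of all probe sets and 52.9%, 22.0% and 22.6% of all genes passed. Members called in CC were 0 with the methods' t-test, quantile normalization or median centring. Of all 45037 probe sets, 325, 525 and 470 were called in CC in these settings. The number was 642 with all arrays in 1 fit and 645 with array weights, which gave 196 in PFC. The t-test left 0 members at an adjusted p in PFC and 7 pathway genes in CC and 4 in PFC. With it 1.19% of all probe sets passed in PFC, and 4.38% of all genes in CC and 2.91% in PFC. Median centring left 2 members and 8 pathway genes in the hippocampus, quantile normalization 7 pathway genes there, and keeping only the more variable probe sets (above the median SD) 2 members and 4 pathway genes there. After median centring 11.3% of all probe sets and 9.36% of all genes passed in the hippocampus. With quantile normalization 11.2% of all genes did. Of the more variable features, 17.0% of probe sets and 18.3% of genes passed. With the probe sets of a gene averaged, 1 gene was called in the amygdala, and 3 genes in the amygdala, 3 in the hippocampus, 1 in CC and 1 in PFC had an adjusted p under 0.05. Of all genes, 0.583% were called in the amygdala, and 19.4%, 29.6%, 9.94% and 8.37% passed in the 4 areas in that order. The change of Slc16a10 1453675_at in the hippocampus turned from -0.04 to 0.0022 with quantile normalization (limma adjusted p 0.91), and the median Ttr change there from 0.11 to -0.10, with at least 1 of the 4 probe sets not passing in either. The causes were not tested.

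Leaving out 1 array at a time gave 2 members called in the amygdala, 0 in the hippocampus, 0 to 1 in CC and 0 in PFC. Members at an adjusted p ran from 6 to 8, 2 to 8, 4 to 6 and 0 to 1 in those areas, and pathway genes from 5 to 18, 3 to 17, 6 to 16 and 4 to 10, beside the shares of all features given with these counts above. The Ttr change ran from -3.74 to -3.42, 0.08 to 0.14, -6.99 to -6.87 and -7.25 to -6.97. Probe sets whose response differed between areas numbered 11 to 14, and those that differed between control areas 9 to 10.

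Replicate numbers did not pair the arrays: same-numbered CMS and control arrays had correlated deviations of -0.0581 to 0.0135, and 2 of 12 correlated best with their own number. With the number as a replicate block, members called in CC were 0, where 324 of all 45037 probe sets were called. Members at an adjusted p were 5 in the amygdala, 1 in the hippocampus, 3 in CC and 0 in PFC, and pathway genes were 4, 0, 5 and 2. The share of all probe sets that passed fell too, to 3.87%, 0.775%, 2.91% and 0.02% in those areas. For all genes it was 6.41%, 0%, 2.78% and 0.429%. The median Ttr change in PFC stayed at -7.13, with a largest adjusted p of 0.0562. Of the single probe set values recomputed over all settings, 1161 kept their side of the threshold, 49 came to pass it, 109 no longer passed and 1 changed sign. With 3 arrays a group and no levels in the table, changes near a probe set's background could not be judged.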

Other observations

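Over the 24 arrays, the values of 7423 genes with an SD of at least 0.2 were ranked by their likeness to each of the 9 genes, with the probe sets of a gene averaged. The points share the 4 areas and the coefficients are a description. Those for Thrb rest on the CC CMS arrays and those for Slc16a10 on values close to 0 but for 1 CC control array. Those for Klf9 and Thra rest on means of probe sets that did not move alike. Nearest to Trhr were Pigt (Pearson r 0.979), Otp (0.965) and Smyd1 (0.956). Otp, a transcription factor of hypothalamic neurons, fell in the amygdala by 0.52 on the log2 scale (limma adjusted p 0.00508). Nearest to Crym were Galnt16 (0.972), Cotl1 (0.969) and Cpne6 (0.965), of which Galnt16 fell in the amygdala by 0.64 (adjusted p 0.00472). Nearest to Dio2 were Ddit4l (0.980), Dpy19l1 (0.952) and Ubtd2 (0.949), and Ddit4l fell in the hippocampus by 0.80 (adjusted p 0.0197).

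Nearest to Thra were Cmip (0.965), Nell2 (0.957) and Ifi27 (0.947), and nearest to Thrb were Zfp605 (0.893), Pcdhb21 (0.884) and Lrrtm2 (0.876). Lrrtm2, a synaptic adhesion protein, rose in CC by 0.96 (limma adjusted p 0.000802). For Klf9 the 3 were Napa (0.968), Car7 (0.966) and Cap2 (0.964), for Hr Syndig1 (0.914), 1810055G02Rik (0.898) and Cds1 (0.890), for Slco1c1 Opcml (0.900), Vasn (0.888) and Satb1 (0.878), and for Slc16a10 2610028H24Rik (0.927), Gm16630 (0.899) and A930001A20Rik (0.887).

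In the hippocampus, where Ttr was not called, 10 of 12 thalamus and habenula markers rose and 5 were called, with list means of 0.47 to 0.51 in CMS arrays and -0.48 to -0.41 in control arrays.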
